A study of Mus musculus with 12 samples.

Results

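The 29 genes described here are those of cholesterol synthesis and of the system that senses, moves and removes sterol: 18 synthesis enzymes from Acat2 and Hmgcs1 to Dhcr7, the 5 genes of sterol sensing (Srebf1, Srebf2, Scap, Insig1 and Insig2), the sterol carrier Stard4, the oxysterol receptor Nr1h2, the efflux transporters Abca1 and Abcg1, and the turnover enzymes Cyp46a1 and Soat1. They were chosen by name and not by a rule on measured values, though earlier results of these data were known when they were chosen. All 29 were found among the 44760 genes that the 7-month and 18-month count tables share, with Msmo1 listed under its older symbol Sc4mol. RNA of whole hippocampus was sequenced from male mice that carry the APPswe/PS1dE9 transgenes, a model of amyloid deposition, on a C57BL/6 background (N9B6). There were 4 groups of 3 libraries: nicotine at 18 months, saline at 18 months, nicotine at 7 months and saline at 7 months. Each animal had received nicotine hydrogen tartrate, at a labelled rate of 48 mg/kg/h, or saline from a subcutaneous osmotic mini pump over 14 days. All 4 groups carry both transgenes, and both ages lie after the plaque onset that the labels state, so every difference below is one within transgenic hippocampus. The labels do not say whether the 3 libraries of a group came from separate animals, so each p-value measures only the spread between these libraries.

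The brain makes nearly all of its own cholesterol, because lipoprotein cholesterol does not cross the blood-brain barrier, and in adults astrocytes and oligodendrocytes carry most of that synthesis. When membrane sterol is low, Scap escorts the precursors of the transcription factors encoded by Srebf1 and Srebf2 out of the endoplasmic reticulum and the cleaved factors switch on the synthesis enzymes; when sterol is plentiful, the Insig proteins hold Scap back. Excess sterol leaves through another arm: oxysterols activate the liver X receptors, which raise the efflux transporters Abca1 and Abcg1, Soat1 stores cholesterol as esters, and neurons use Cyp46a1 to turn it into an oxysterol that can leave the brain.

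Of the 29 members, 24 had a start site in the RefSeq promoter table (build GRCm38.p6), and the 250 bases before each start were searched on both strands for the letters of the sterol regulatory element (TCACNCCAC) and of the CCAAT box (CCAAT), through which the Srebf factors and their partner NF-Y act. A CCAAT box lay before at least 1 start of 14 of 15 synthesis genes and of 6 of 9 other members, against 33.8% of all 32851 promoters in the table, where each start counts once. The GC box (GGGCGG) and the E-box (CACGTG) were searched too. A GC box lay before 13 of 15 synthesis genes and 7 of 9 other members, against 32.7% of promoters. An E-box lay before 2 of 15 and 3 of 9, against 6.02%. A share above that of all promoters is thus not particular to the CCAAT box. The sterol regulatory element as spelled lay before Hmgcs1, at bases -137 to -129, and before none of the other 14 synthesis genes or the 9 other members, against 1.05% of all promoters; no match says only that these letters are not in this window. In the sequences that follow, capitals mark the sterol regulatory element and the CCAAT box on whichever strand they lie. For 3 members that are higher at 18 months below (Hmgcs1, Lss, Abca1) and 3 that are lower (Pmvk, Ebp, Cyp46a1), the upstream bases are shown. They run 5′ to 3′ on the gene's own strand up to the base before the RefSeq start: Hmgcs1 from chr13:119690101-119690350 (plus strand), Lss from chr10:76531355-76531604 (plus strand), Abca1 from chr4:53159896-53160145 (minus strand), Pmvk from chr3:89454291-89454540 (plus strand), its first start in the table, Ebp from chrX:8193513-8193762 (minus strand) and Cyp46a1 from chr12:108334066-108334315 (plus strand).
Hmgcs1: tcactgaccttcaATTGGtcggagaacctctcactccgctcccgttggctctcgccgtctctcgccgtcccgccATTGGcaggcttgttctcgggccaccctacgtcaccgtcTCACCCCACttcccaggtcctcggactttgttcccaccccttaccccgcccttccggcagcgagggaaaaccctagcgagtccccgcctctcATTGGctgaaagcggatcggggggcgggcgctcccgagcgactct
Lss: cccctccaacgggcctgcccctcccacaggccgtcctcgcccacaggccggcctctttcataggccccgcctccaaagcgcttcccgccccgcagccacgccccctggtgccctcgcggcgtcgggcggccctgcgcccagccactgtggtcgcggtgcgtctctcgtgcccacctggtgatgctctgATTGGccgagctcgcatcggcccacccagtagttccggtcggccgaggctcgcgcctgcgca
Abca1: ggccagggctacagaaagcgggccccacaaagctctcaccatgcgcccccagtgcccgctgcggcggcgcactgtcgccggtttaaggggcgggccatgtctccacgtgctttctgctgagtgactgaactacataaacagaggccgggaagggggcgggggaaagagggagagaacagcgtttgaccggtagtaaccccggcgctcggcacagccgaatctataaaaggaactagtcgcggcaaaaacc
Pmvk: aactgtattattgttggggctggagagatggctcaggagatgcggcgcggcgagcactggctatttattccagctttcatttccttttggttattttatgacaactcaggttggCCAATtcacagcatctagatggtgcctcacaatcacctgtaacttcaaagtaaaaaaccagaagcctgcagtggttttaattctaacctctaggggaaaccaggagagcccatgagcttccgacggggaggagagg
Ebp: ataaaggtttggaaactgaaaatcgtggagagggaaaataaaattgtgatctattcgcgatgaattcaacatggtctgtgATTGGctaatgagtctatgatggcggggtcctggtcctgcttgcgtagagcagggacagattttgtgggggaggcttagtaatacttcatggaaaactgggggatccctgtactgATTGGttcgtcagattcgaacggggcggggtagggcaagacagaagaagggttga
Cyp46a1: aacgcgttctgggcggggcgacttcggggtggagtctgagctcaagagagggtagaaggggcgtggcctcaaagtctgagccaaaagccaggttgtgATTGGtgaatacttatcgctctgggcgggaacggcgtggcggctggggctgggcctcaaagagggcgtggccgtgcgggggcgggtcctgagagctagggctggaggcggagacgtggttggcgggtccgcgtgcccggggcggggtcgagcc
Hmgcs1 holds 3 CCAAT boxes beside the sterol regulatory element, Ebp holds 2, and Lss, Pmvk and Cyp46a1 hold 1 each. Abca1 holds neither the sterol regulatory element nor the CCAAT box in these bases. For Hmgcs1 and Cyp46a1 the bases just after the RefSeq start were not found in a GENCODE M21 transcript of the gene. Positions before these genes therefore rest on the RefSeq start alone. Hmgcs1 and Abca1 are not called higher in every age comparison below.

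Libraries held 21260068 to 23715015 counts at 18 months and 25071195 to 29245972 at 7 months. A member had 179 (Ebp) to 6257 (Srebf2) counts in a library. Saline library 2 at 7 months stood apart from the other 7-month libraries: transcripts over 5000 nt took 27.8% of its counts, against 19.2% to 20.03% in the other 5 and 31.2% to 32.1% in the 6 libraries of 18 months. Some results that rest on it are given with and without it, and others only with it. All 8 markers of hippocampal neurons looked for were detected in every library, with a summed level of 624 to 830 CPM (counts scaled to library size, with the trimmed mean of M values). The 7 summed markers of the choroid plexus, which lies next to the hippocampus, varied most: they ranged from 24.2 to 1514 CPM under nicotine and 20.4 to 90.5 CPM under saline at 18 months, where 1 marker was at 0 in 1 saline library, and from 57.3 to 6147 CPM under nicotine and 126.86 to 1617 CPM under saline at 7 months. Their part in the values below was not tested.

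Per length, Cyp46a1 had the highest median over the 12 libraries, at 203 TPM (range 177 to 251), where TPM scales counts by transcript length and library size. Hmgcs1 followed with 184 TPM (range 116 to 241), Srebf2 with 135 TPM (range 85.3 to 169) and the farnesyl diphosphate synthase gene Fdps with 119.6 TPM (range 84.6 to 136). Srebf2 and Fdps stayed below Cyp46a1 in all 12 libraries. The order of the leading pair differed between the ages. The ages were deposited as separate tables, and a trend with transcript length between them is given below. Scaling to TPM does not take out such a trend, and its part in this order was not tested. At 18 months Hmgcs1 averaged 213 ± 24.0 TPM under nicotine and 231 ± 17.0 TPM under saline, and Cyp46a1 193 ± 14.0 TPM and 189 ± 6.28 TPM in the same order. At 7 months Hmgcs1 averaged 125 ± 8.35 TPM under nicotine and 148 ± 29.2 TPM under saline, and Cyp46a1 237 ± 12.6 TPM and 215 ± 9.13 TPM (SD, n = 3 each). Lowest were Hsd17b7 with 12.6 TPM (range 6.88 to 15.7), Stard4 with 11.9 TPM (range 5.92 to 16.7) and Soat1 with 9.51 TPM (range 3.67 to 12.2). Synthesis enzymes ran from Hsd17b7 to Hmgcs1, while the 5 sensing genes lay between a median of 48.8 TPM for Insig2 and 135 TPM for Srebf2. RNA of bulk tissue cannot tell fewer cells of a type from less RNA per cell, here or in any comparison below.

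**Figure D1:**
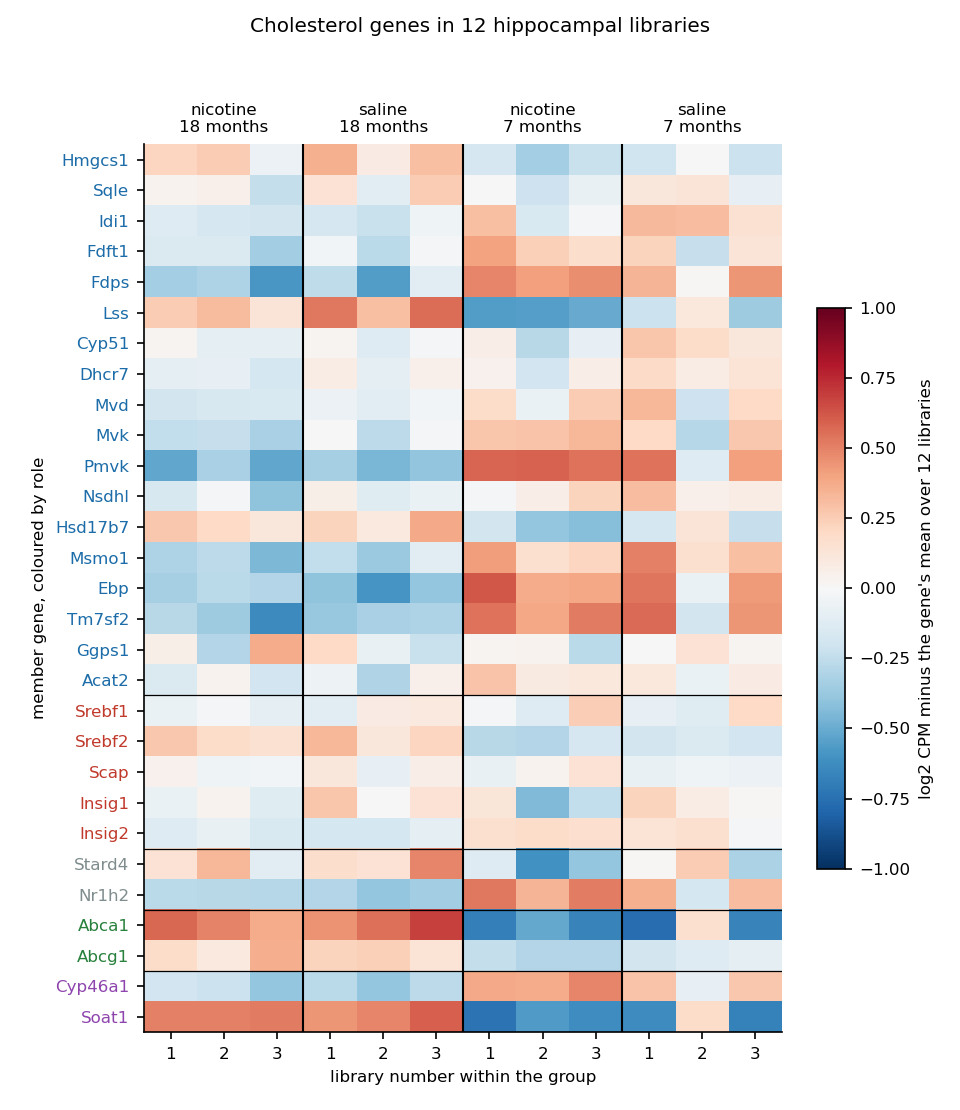
Level of each of the 29 members in each of the 12 libraries, as log2 CPM minus the gene's mean over the 12 libraries (colour, from -1 to 1), with groups from left to right and genes grouped and coloured by role. Abca1 and Soat1 are high in all 6 libraries of 18 months and low in all 7-month libraries but saline library 2, and Pmvk, Fdps, Ebp and Tm7sf2 show the opposite order, while columns of the same age differ little between nicotine and saline.

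Nicotine was first compared with saline within the older animals, which asks what the infusion changed at the late stage of the disease model. At 18 months 0 of the 29 members passed edgeR's quasi-likelihood F-test at a Benjamini-Hochberg adjusted p of 0.05, against 0.044% of all 18196 genes tested (8 genes). DESeq2 called 0 members, against 0.313% of genes. The enzymes leaned low. Of the 18 synthesis genes, 16 had a log2 fold change below 0 and 2 lay above it, with a median of -0.11. This stands beside 9444 of the 18196 genes below 0 and a median of -0.0047 over all genes. The 18 values come from the same libraries, so their signs are not independent. Between libraries of a group the median level of the enzymes had an SD of 0.098 (log2), near the size of the shift. Summed enzyme levels overlapped, at 711 to 799 CPM under nicotine and 738 to 860 CPM under saline. The largest changes were small, from -0.25 for Lss to 0.14 for the sterol isomerase gene Ebp. Unadjusted p was under 0.05 for 2 members, Lss and Insig1, or 2 of 29, against 6.73% of all genes.

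Lss, which closes squalene epoxide into lanosterol, the first sterol of the pathway, had 34.7, 36.3 and 32.0 CPM in nicotine libraries, against 42.1, 36.0 and 43.0 CPM in saline libraries. Saline libraries 1 and 3 were the highest and saline library 2 lay among the nicotine values, so the groups overlapped, and the log2 fold change of -0.25 (SE 0.078, adjusted p = 0.613) did not pass. Insig1, the membrane protein that retains Scap and is itself a target of the Srebf factors, had 49.9, 53.4 and 48.0 CPM in nicotine libraries, against 63.0, 52.2 and 57.7 CPM in saline libraries. Here too saline library 2 fell inside the nicotine range, and the log2 fold change was -0.21 (SE 0.072, adjusted p = 0.649). Dhcr7, the reductase of a final step, had 29.4, 29.6 and 27.7 CPM in nicotine libraries, against 33.0, 29.4 and 32.4 CPM in saline libraries. This gave a log2 fold change of -0.14 (SE 0.064, adjusted p = 0.745). Mvk, mevalonate kinase, had 16.5, 16.7 and 15.6 CPM in nicotine libraries, against 19.6, 16.3 and 19.3 CPM in saline libraries. This gave a log2 fold change of -0.19 (SE 0.085, adjusted p = 0.745). In both genes the 2 groups overlapped only through saline library 2.

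The pacing enzymes gave the same picture with wider spread. Hmgcs1, which makes the HMG-CoA that enters the mevalonate pathway, had 245, 251 and 203 CPM in nicotine libraries, against 270.4, 224 and 261 CPM in saline libraries. The log2 fold change was -0.12 (SE 0.093, adjusted p = 0.883). Sqle, squalene epoxidase, a rate-limiting step of sterol formation, had 56.6, 57.1 and 46.7 CPM in nicotine libraries, against 60.9, 50.9 and 65.7 CPM in saline libraries. For Sqle the log2 fold change was -0.16 (SE 0.10, adjusted p = 0.853). In both genes nicotine library 3 was the lowest of the 6 and saline library 2 the next lowest, so the groups overlapped. Across the 18 enzymes nicotine library 3 was the lowest of the 6 libraries 11 times and saline library 2 was the lowest 5 times, while saline libraries 1 and 3 were above the median of the 6 for 16 enzymes each. Leaving out each library in turn moved the median log2 fold change of the 18 enzymes between -0.15 (without saline library 2) and -0.046 (without nicotine library 3).

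Among the regulators beside Insig1 and in the export arm no member passed either. Srebf2, the main driver of the synthesis genes, had 265, 249.7 and 245 CPM in nicotine libraries, against 277, 238 and 256 CPM in saline libraries. The log2 fold change was -0.034 (SE 0.062, adjusted p = 0.959). Srebf1, whose product drives fatty acid genes more than sterol genes, had 74.0, 77.0 and 72.6 CPM in nicotine libraries, against 72.0, 82.1 and 83.0 CPM in saline libraries. For Srebf1 the log2 fold change was -0.10 (SE 0.066, adjusted p = 0.860). Neither gene separated the groups. Abca1, the transporter that loads cholesterol onto apolipoproteins, had 70.4, 66.7 and 61.2 CPM in nicotine libraries, against 64.3, 69.3 and 75.7 CPM in saline libraries. For Abca1 the log2 fold change was -0.092 (SE 0.074, adjusted p = 0.891). Cyp46a1, the neuronal cholesterol hydroxylase, had 136, 134 and 118 CPM in nicotine libraries, against 129, 118 and 129 CPM in saline libraries. The log2 fold change was 0.030 (SE 0.063, adjusted p = 0.968). The remaining sensing, transport and turnover genes lay between -0.16 (Stard4) and 0.049 (Nr1h2, liver X receptor beta).

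Groups of 18 months did not overlap for 3 members. Mvd, mevalonate diphosphate decarboxylase, was lower in all 3 nicotine libraries, with 16.7, 16.9 and 17.1 CPM in nicotine libraries, against 18.2, 17.5 and 18.5 CPM in saline libraries. It was 1 of 29 members, against 5.14% of all genes. Ebp was higher in all 3, with 9.62, 10.03 and 9.88 CPM in nicotine libraries, against 9.16, 8.05 and 9.25 CPM in saline libraries. So was Nr1h2, with 40.6, 40.4 and 40.2 CPM in nicotine libraries, against 39.9, 37.6 and 38.5 CPM in saline libraries. These were 2 of 29 members, against 6.61% of all genes. These shares are near those of all genes. Summed oligodendrocyte markers (12 genes) ranged from 3240.8 to 4586 CPM in nicotine libraries and from 3196 to 5693 CPM in saline libraries. Summed astrocyte markers (8 genes) ranged from 4536 to 4837 CPM in nicotine libraries and from 4225 to 4764 CPM in saline libraries. All were above 0 in every library. Of the oligodendrocyte markers 12 of 12 had a log2 fold change below 0, and their part in these values was not tested.

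At 7 months, the earlier stage of the design, nicotine again called 0 of 29 members with edgeR, against 0.0114% of 17596 genes (2 genes), and 0 with DESeq2, against 0.46% of genes. Of the 18 synthesis enzymes 11 lay below 0 and 7 above it, with a median log2 fold change of -0.07, beside a median of -0.0085 over all genes. The 2 members with an unadjusted p under 0.05, or 2 of 29 against 6.5% of all genes, were Lss and Cyp51. The values ran from -0.41 for Lss to 0.27 for Nr1h2, with a median SE over the members of 0.13, against 0.074 at 18 months. Without saline library 2 they ran from -0.29 for Insig1 to 0.14 for Cyp46a1, close to the span at 18 months.

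Lss had 19.8, 19.9 and 20.5 CPM in nicotine libraries, against 25.2, 31.4 and 22.8 CPM in saline libraries. All 3 nicotine libraries were below all 3 saline libraries, and the log2 fold change was -0.41 (SE 0.15, adjusted p = 0.656). Without saline library 2, the highest, it was -0.26 (SE 0.082, adjusted p = 0.519). Cyp51, which removes a methyl group from lanosterol, had 53.4, 41.9 and 48.1 CPM in nicotine libraries, against 61.6, 57.8 and 55.0 CPM in saline libraries. Its groups did not overlap either, with a log2 fold change of -0.30 (SE 0.12, adjusted p = 0.656) and of -0.29 (SE 0.11, adjusted p = 0.568) without saline library 2. Dhcr7 had 32.3, 27.4 and 32.7 CPM in nicotine libraries, against 35.6, 32.9 and 34.4 CPM in saline libraries, another enzyme without overlap, at -0.17 (SE 0.11, adjusted p = 0.656). The efflux transporter Abcg1 was the fourth member that was lower in all 3 nicotine libraries, with 63.6, 61.4 and 61.4 CPM in nicotine libraries, against 66.2, 68.8 and 70.1 CPM in saline libraries. That made 4 of 29 members, against 8.36% of all genes.

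In the other direction Cyp46a1 had 201, 201 and 217 CPM in nicotine libraries, against 189, 146 and 187 CPM in saline libraries, higher in all 3 nicotine libraries. Its log2 fold change was 0.23 (SE 0.12, adjusted p = 0.656) and, without saline library 2, 0.14 (SE 0.061, adjusted p = 0.614). Mvk, with 23.6, 23.8 and 24.6 CPM in nicotine libraries, against 22.4, 16.1 and 23.5 CPM in saline libraries, was the other member without overlap on this side, or 2 of 29, against 9.02% of all genes. The log2 fold change of Mvk was 0.20 with saline library 2 and 0.065 (SE 0.075) without it. Stard4, which carries sterol through the cytosol, had 17.4, 12.5 and 14.5 CPM in nicotine libraries, against 19.2, 22.7 and 15.2 CPM in saline libraries. Its groups overlapped, with a log2 fold change of -0.38 (SE 0.19, adjusted p = 0.656) and of -0.22 (SE 0.17, adjusted p = 0.780) without saline library 2.

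Hmgcs1 had 188, 167 and 181 CPM in nicotine libraries, against 184, 211 and 182 CPM in saline libraries. The log2 fold change was -0.12 (SE 0.11, adjusted p = 0.681). Sqle had 55.3, 47.8 and 52.4 CPM in nicotine libraries, against 59.8, 60.2 and 52.2 CPM in saline libraries. For Sqle the log2 fold change was -0.16 (SE 0.11, adjusted p = 0.656). Both overlapped, and Hmgcs1 moved to -0.036 (SE 0.067) without saline library 2. Insig1 had 56.6, 38.3 and 43.8 CPM in nicotine libraries, against 60.7, 54.8 and 52.5 CPM in saline libraries: nicotine library 1 lay with the saline libraries and the other 2 below them, for a log2 fold change of -0.29 (SE 0.15, adjusted p = 0.656). Srebf2 had 182, 179.6 and 196 CPM in nicotine libraries, against 194, 199.8 and 193 CPM in saline libraries, at -0.090 (SE 0.093). Srebf1 had 76.7, 70.8 and 91.7 CPM in nicotine libraries, against 73.2, 71.4 and 88.8 CPM in saline libraries, at 0.022 (SE 0.14), and its sign turned to -0.022 (SE 0.13) without saline library 2.

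Abca1 showed how far that library can carry a difference. It had 29.5, 33.2 and 29.7 CPM in nicotine libraries, against 27.8, 52.6 and 29.6 CPM in saline libraries, and 5 of the 6 values lay within 27.8 to 33.2 CPM. The log2 fold change of -0.27 (SE 0.25, adjusted p = 0.685) turned to 0.10 (SE 0.083) without saline library 2. Soat1, the esterifying enzyme, had 12.6, 14.2 and 13.6 CPM in nicotine libraries, against 13.6, 23.8 and 13.2 CPM in saline libraries and a log2 fold change of -0.34 (SE 0.25) with that library and 0.014 (SE 0.099) without it. A short transcript showed the reverse: Pmvk, phosphomevalonate kinase, had 53.5, 53.6 and 52.0 CPM in nicotine libraries, against 52.1, 32.7 and 47.5 CPM in saline libraries, at 0.26 (SE 0.16) with that library and 0.092 (SE 0.061) without it. Over the 29 members the rank correlation of the log2 fold change with transcript length was -0.72 with the library and -0.25 without it. Over all genes with a length it was -0.45 with the library and -0.099 without it. These are descriptions of values that share the same libraries. Without the library 13 of 18 enzymes lay below 0, with a median of -0.089, and still 0 members passed, with 0 of 17900 genes called.

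Oligodendrocyte markers had a summed level of 4190.5 to 5802 CPM in the 7-month nicotine libraries, against 5721 to 6961 CPM in saline libraries, which overlap through library 1 of each group. All 12 markers were above 0 in every library and 12 of 12 had a log2 fold change below 0, but 0 passed edgeR's test (smallest adjusted p = 0.656), with 5 at an unadjusted p under 0.05. Astrocyte markers summed to 3453 to 3738 CPM under nicotine and 3474 to 4550 CPM under saline. Their part in the values of the synthesis genes was not tested.

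**Figure D2:**
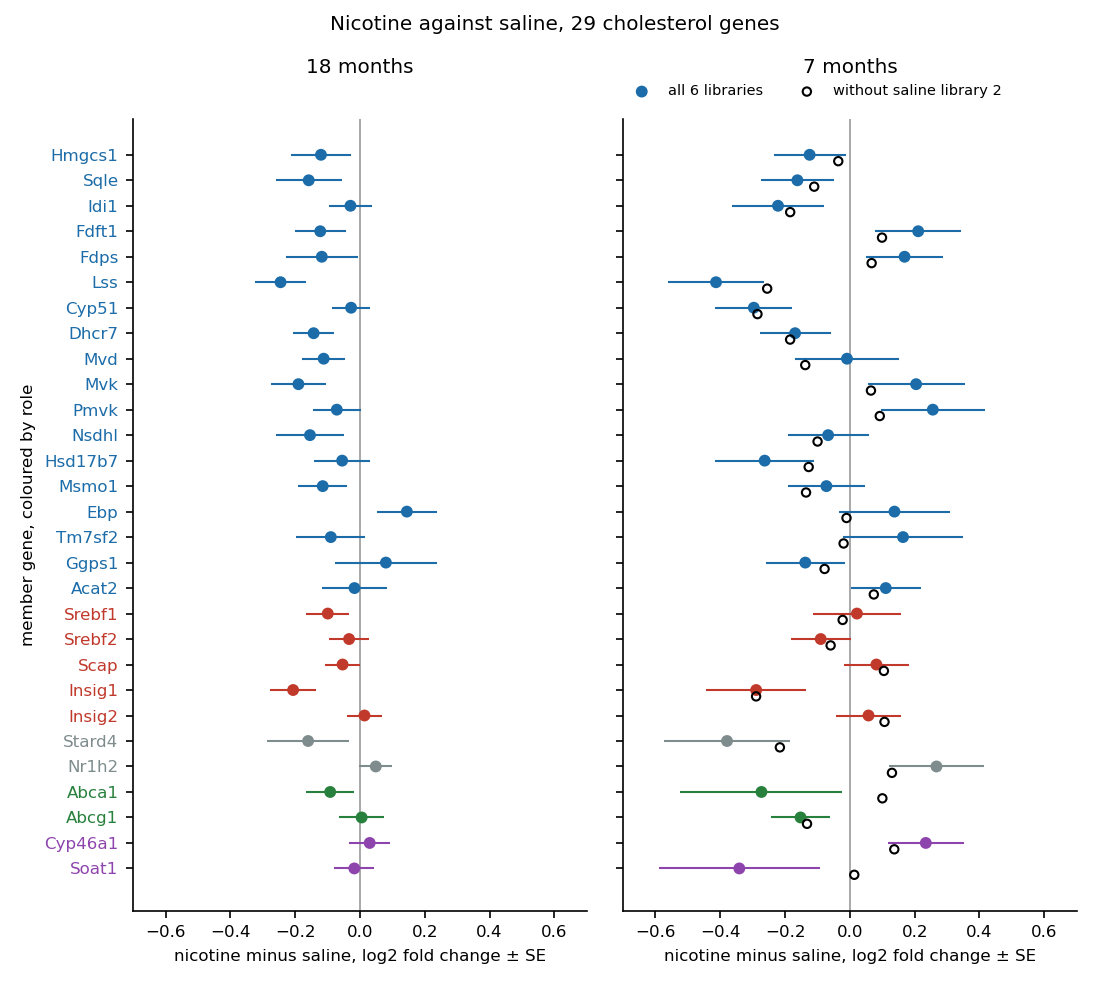
Log2 fold change (nicotine minus saline) with its SE for each of the 29 members, at 18 months (left) and 7 months (right), n = 3 libraries a group, with genes grouped and coloured by role and open circles for the 7-month values without saline library 2. At 18 months 16 of 18 enzymes lie left of 0, the farthest being Lss at -0.25, and at 7 months the open circles lie nearer to 0 than the filled ones for Abca1, Soat1 and Pmvk.

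Averaged over both ages in the fit of all 12 libraries, the nicotine effect called 0 of 29 members, against 0.0365% of 19171 genes (7 genes). DESeq2 called 0, against 0.417% of genes. Of the members, 4 had an unadjusted p under 0.05, against 6.86% of all genes: Lss with -0.31 (SE 0.082, adjusted p = 0.389), Insig1 with -0.23 (SE 0.091, adjusted p = 0.668), Dhcr7 with -0.14 (SE 0.062, adjusted p = 0.704) and Cyp51 with -0.15 (SE 0.067, adjusted p = 0.722). For Lss, whose unadjusted p was 0.00234, leaving out each library in turn gave a log2 fold change of -0.36 to -0.24 and an adjusted p of 0.24 to 0.789. Each of these 4 genes lay below 0 at both ages, as did 10 of the 18 enzymes, while 1 enzyme (Ebp) lay above 0 at both ages and 7 had opposite signs. The 4 genes were picked by their average over the ages, which favours a shared sign, so for them it adds no separate evidence. Without saline library 2 the 7-month value of Ebp was -0.011 (SE 0.11). Of the other genes followed throughout, the averages were -0.11 (SE 0.075) for Hmgcs1, -0.15 (SE 0.081) for Sqle, -0.025 (SE 0.079) for Srebf1, -0.048 (SE 0.053) for Srebf2, -0.17 (SE 0.14) for Abca1 and 0.14 (SE 0.072) for Cyp46a1.

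The nicotine effect at 18 months minus that at 7 months was tested as an interaction. It called 0 of 29 members with edgeR, against 0.00522% of genes (1 gene), and 0 with DESeq2, against 0.193% of genes. No member had an unadjusted p under 0.05, against 7.85% of all genes. The 4 smallest p-values belonged to Mvk with a difference of -0.39 (SE 0.19), Cyp51 with 0.27 (SE 0.13), Fdft1 (squalene synthase) with -0.33 (SE 0.17) and Pmvk with -0.32 (SE 0.20), at adjusted p of 0.623 to 0.626. Without 7-month saline library 2 the difference was -0.26 for Mvk, -0.23 for Fdft1 and -0.17 for Pmvk. Hmgcs1 and Sqle had differences near 0, of 0.00050 (SE 0.15) and 0.0011 (SE 0.16), with SEs too wide to show equal effects. Without 7-month saline library 2 the difference of Hmgcs1 was -0.088. Differences were -0.12 (SE 0.16) for Srebf1, 0.055 (SE 0.11) for Srebf2, 0.081 (SE 0.18) for Insig1, 0.17 (SE 0.27) for Abca1 and -0.20 (SE 0.14) for Cyp46a1.

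Among 38 further genes of sterol and fatty acid metabolism, 0 passed under nicotine at 18 months, at 7 months, on average or in the interaction, with an unadjusted p under 0.05 for 2 of 38 at 18 months, against 6.73% of all genes, and 6 of 38 at 7 months, against 6.5% of all genes. At 18 months the smallest p of these lists belonged to Elovl6, a fatty acid elongase, at 0.22 (SE 0.051, adjusted p = 0.440), and Sc5d, the sterol desaturase, at -0.15 (SE 0.058, adjusted p = 0.705). At 7 months Sc5d was at -0.51 (SE 0.17, adjusted p = 0.656). It was lower in all 3 nicotine libraries than in all 3 saline libraries at both ages. At 7 months this held for 10 of the 38 genes, against 8.36% of all genes. At 18 months it held for 2 of the 38, against 5.14% of all genes. Averaged over ages Sc5d was at -0.31 (SE 0.085, adjusted p = 0.408).

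**Figure D3:**
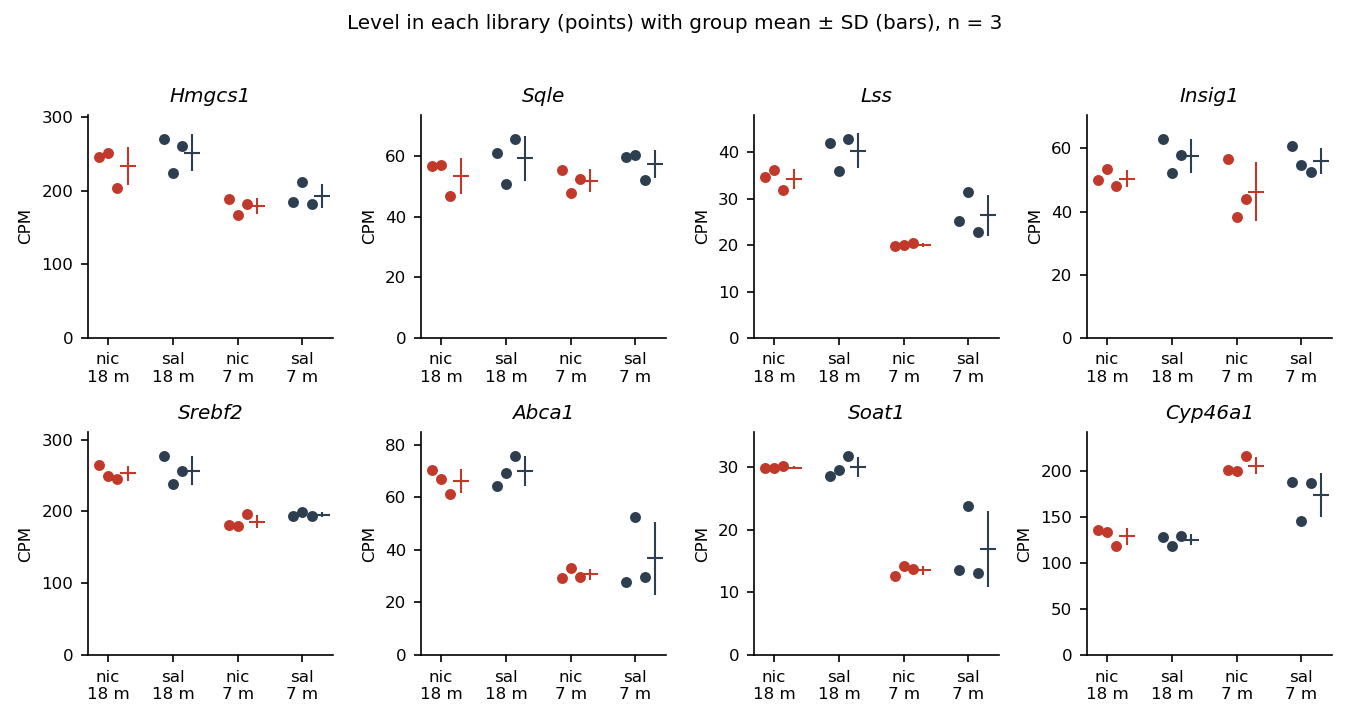
CPM of 8 members in each library (points) beside the group mean and SD (bars, n = 3), with nicotine in red and saline in dark blue, 18 months left of 7 months and each axis starting at 0. Lss lies at 32.0 to 36.3 CPM under nicotine and 36.0 to 43.0 CPM under saline at 18 months and is lower at 7 months, and 7-month saline library 2 is the single high point for Abca1 (52.6 CPM) and Soat1 (23.8 CPM) and the low point for Cyp46a1 (146 CPM).

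The age comparison gave many calls where nicotine gave none. Under nicotine 18 of 29 members differed between 18 and 7 months by edgeR's quasi-likelihood F-test, 8 higher, against 29.5% of all genes, and 10 lower, against 29.8% of all genes. Under saline 16 of 29 differed, 7 higher, against 21.5% of all genes, and 9 lower, against 24.6% of all genes. These shares are close to those of the 19171 genes tested, and are read as no result about the cholesterol genes; the values of each member follow. In both infusions 7 members were higher and 8 were lower, 0 were called in opposite directions, 3 were called under nicotine only and 1 under saline only. The share of all genes called in both infusions was not counted. Lower values in all 18-month libraries than in all 7-month libraries were found for 13 of 29 members under nicotine, against 34.5% of all genes. Under saline they were found for 10 of 29, against 25.7% of all genes. Higher values without overlap were found for 8 of 29 under nicotine, against 34.4%, and for 6 of 29 under saline, against 24%. Separation of the ages was thus common among all genes. Each age was deposited as its own table, so age cannot be told apart from sequencing run, library preparation or processing.

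The synthesis enzymes split. Lss had the largest rise of the 18, with a log2 difference of 0.77 (SE 0.12, adjusted p = 2.19e-04) under nicotine and 0.61 (SE 0.12, adjusted p = 0.00172) under saline. Its 18-month libraries lay at 32.0 to 43.0 CPM and its 7-month libraries at 19.8 to 31.4 CPM, with no overlap. Hmgcs1 rose by 0.39 (SE 0.11, adjusted p = 0.00769) under nicotine and 0.39 (SE 0.11, adjusted p = 0.0113) under saline. It averaged 233 ± 26.3 CPM at 18 months and 179 ± 10.9 CPM at 7 months under nicotine, and 252 ± 24.6 CPM at 18 months and 193 ± 16.3 CPM at 7 months under saline (SD, n = 3 each). Hsd17b7, a ketoreductase of sterol demethylation, was the third to rise, at 0.52 (SE 0.12, adjusted p = 0.00287) under nicotine and 0.32 (SE 0.12, adjusted p = 0.0468) under saline.

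The enzymes that fell in both infusions act between mevalonate and farnesyl diphosphate (Pmvk, Fdps) or on the sterol ring (Msmo1, Ebp, Tm7sf2). Pmvk had 24.9, 28.4 and 24.9 CPM at 18 months and 53.5, 53.6 and 52.0 CPM at 7 months under nicotine, and 28.3, 26.0 and 27.1 CPM at 18 months and 52.1, 32.7 and 47.5 CPM at 7 months under saline. Every 18-month library was below every 7-month library, at -1.02 (SE 0.14, adjusted p = 1.28e-04) under nicotine and -0.70 (SE 0.14, adjusted p = 0.00217) under saline. Fdps, which makes farnesyl diphosphate, had 43.9, 44.7 and 37.0 CPM at 18 months and 77.5, 73.5 and 76.6 CPM at 7 months under nicotine, and 46.4, 37.6 and 51.2 CPM at 18 months and 70.0, 55.9 and 75.0 CPM at 7 months under saline. Again there was no overlap, at -0.86 (SE 0.13, adjusted p = 2.35e-04) under nicotine and -0.57 (SE 0.13, adjusted p = 0.00456) under saline. Msmo1, a methyl sterol oxidase, had 44.5, 46.0 and 40.5 CPM at 18 months and 73.6, 61.7 and 64.0 CPM at 7 months under nicotine, and 46.6, 42.8 and 51.3 CPM at 18 months and 78.1, 61.7 and 67.9 CPM at 7 months under saline. All 18-month values lay below all 7-month values, at -0.61 (SE 0.11, adjusted p = 5.89e-04) under nicotine and -0.56 (SE 0.11, adjusted p = 0.00187) under saline.

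Ebp had 9.62, 10.03 and 9.88 CPM at 18 months and 18.6, 15.7 and 15.9 CPM at 7 months under nicotine, and 9.16, 8.05 and 9.25 CPM at 18 months and 17.5, 11.5 and 16.2 CPM at 7 months under saline. No 18-month library reached a 7-month library, at -0.77 (SE 0.15, adjusted p = 8.90e-04) under nicotine and -0.77 (SE 0.15, adjusted p = 0.00176) under saline. Tm7sf2, a sterol reductase, fell, at -0.90 (SE 0.17, adjusted p = 7.03e-04) under nicotine and -0.65 (SE 0.17, adjusted p = 0.00802) under saline. It shares 532 nt of exon with Vps51 on the same strand, which had 19427 counts over the 12 libraries beside 5114 for Tm7sf2, so its counts are uncertain. Idi1, the isomerase ahead of Fdps, passed under saline, at -0.41 (SE 0.11, adjusted p = 0.0109), and not under nicotine, at -0.22 (SE 0.11, adjusted p = 0.110). Mvk passed under nicotine, at -0.56 (SE 0.13, adjusted p = 0.00314), and not under saline, at -0.17 (SE 0.13, adjusted p = 0.314). So did Fdft1, at -0.48 (SE 0.12, adjusted p = 0.00492) under nicotine and -0.15 (SE 0.12, adjusted p = 0.329) under saline. Without 7-month saline library 2 both passed under saline too, Mvk at -0.29 (SE 0.082, adjusted p = 0.00868) and Fdft1 at -0.25 (SE 0.091, adjusted p = 0.0334). The interaction given above tests these differences between infusions and called none of them. Fdft1 overlaps the opposite-strand gene Ctsb over 774 nt, and whether counting used strand is not given in the sources used here.

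Of the synthesis genes, 7 passed in neither infusion: Sqle, at 0.045 (SE 0.11) under nicotine and 0.044 (SE 0.11) under saline, Cyp51, at 0.036 (SE 0.095) and -0.23 (SE 0.095) in the same order, Dhcr7, Mvd, Nsdhl (a decarboxylating dehydrogenase), Ggps1 (geranylgeranyl diphosphate synthase) and Acat2 (cytosolic thiolase). Without 7-month saline library 2 Mvd passed as lower under saline, at -0.31 (SE 0.089, adjusted p = 0.0107). With all libraries the last 5 lay between -0.29 (Mvd under nicotine) and 0.13 (Ggps1 under nicotine). Acat2 is 97.7% identical to Acat3 over 1477 nt, so its counts are uncertain as well.

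The sensing genes moved in different directions. Srebf2 rose by 0.45 (SE 0.076, adjusted p = 4.02e-04) under nicotine and 0.39 (SE 0.075, adjusted p = 0.00181) under saline. The 18-month libraries lay at 238 to 277 CPM and the 7-month libraries at 179.6 to 199.8 CPM. Insig2, a further Insig gene, fell, at -0.29 (SE 0.071, adjusted p = 0.00439) under nicotine and -0.24 (SE 0.072, adjusted p = 0.0161) under saline. Srebf1 was at -0.10 (SE 0.11) under nicotine and 0.022 (SE 0.11) under saline, Scap at -0.044 (SE 0.078) and 0.093 (SE 0.078), and Insig1 at 0.12 (SE 0.13) and 0.043 (SE 0.13). None of these passed. Stard4 passed under nicotine, at 0.49 (SE 0.17, adjusted p = 0.0290), and not under saline, at 0.27 (SE 0.17, adjusted p = 0.211). Without 7-month saline library 2 it passed under saline too, at 0.45 (SE 0.17, adjusted p = 0.0352). Nr1h2 had 40.6, 40.4 and 40.2 CPM at 18 months and 70.6, 62.0 and 69.7 CPM at 7 months under nicotine, and 39.9, 37.6 and 38.5 CPM at 18 months and 62.8, 43.5 and 60.6 CPM at 7 months under saline. It fell, at -0.74 (SE 0.12, adjusted p = 3.11e-04) under nicotine and -0.52 (SE 0.12, adjusted p = 0.00438) under saline, without overlap.

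Both efflux transporters rose. Abca1 was higher by 1.10 (SE 0.19, adjusted p = 5.21e-04) under nicotine and 0.93 (SE 0.19, adjusted p = 0.00277) under saline. Abcg1 was higher by 0.49 (SE 0.078, adjusted p = 2.85e-04) under nicotine and 0.34 (SE 0.078, adjusted p = 0.00491) under saline. All 6 libraries of 18 months held 61.2 to 75.7 CPM of Abca1, and the 7-month libraries held 27.8 to 52.6 CPM, with saline library 2 as the highest. Without that library the saline difference of Abca1 was 1.31 (SE 0.092, adjusted p = 3.34e-07). The turnover genes went opposite ways. Soat1 had 29.8, 29.8 and 30.1 CPM at 18 months and 12.6, 14.2 and 13.6 CPM at 7 months under nicotine, and 28.6, 29.6 and 31.8 CPM at 18 months and 13.6, 23.8 and 13.2 CPM at 7 months under saline. It was higher by 1.15 (SE 0.18, adjusted p = 3.07e-04) under nicotine and 0.83 (SE 0.18, adjusted p = 0.00366) under saline. Cyp46a1 was lower, at -0.68 (SE 0.10, adjusted p = 2.16e-04) under nicotine and -0.47 (SE 0.10, adjusted p = 0.00330) under saline. Cyp46a1 held 118 to 136 CPM in all 18-month libraries and 146 to 217 CPM in the 7-month libraries, again with saline library 2 nearest to the older animals. Without saline library 2, 20 members passed under saline, 8 higher, against 31.2% of all genes, and 12 lower, against 29.1% of all genes.

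The direction of the age difference went with transcript length. Of the 10 members with a transcript under 2200 nt, 8 were lower under nicotine and 7 under saline, and 0 were higher. Of the 10 over 4000 nt, 7 were higher under nicotine and 6 under saline, and 0 were lower. Of the 9 between, 1 was higher and 2 were lower in each infusion. Shares of all genes in these length classes were not counted, so the counts describe the members only. The rank correlation of the log2 difference with transcript length over the 29 members was 0.92 under nicotine and 0.87 under saline. Over 16928 genes it was 0.50 under nicotine and 0.44 under saline. Both are descriptions, since all points share the same libraries. Abca1 (10262 nt) and Soat1 (8371 nt) are the longest members and had the largest rises, and Pmvk (1194 nt) is the shortest and had the largest fall under nicotine.

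**Figure D4:**
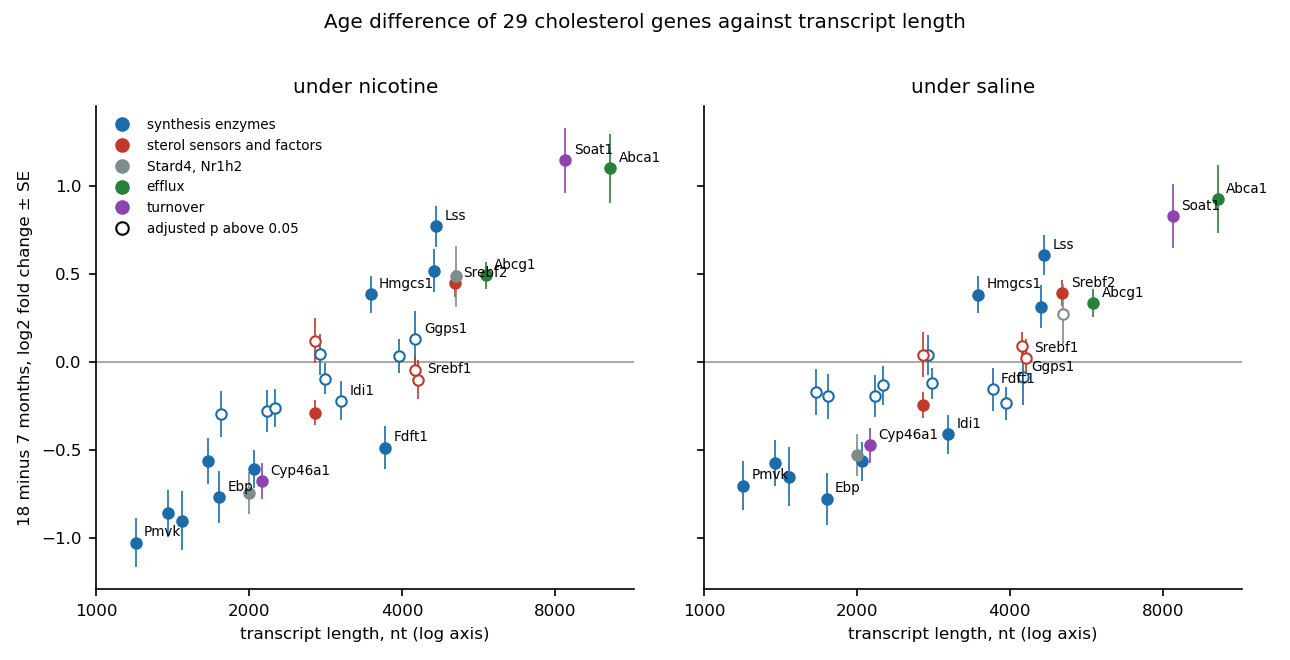
Age difference (18 minus 7 months, log2 fold change ± SE) of each of the 29 members against the length of its transcript on a log axis, under nicotine (left) and saline (right), coloured by role, with open points for an adjusted p above 0.05. Members under 2200 nt lie below 0 and most over 4000 nt above it, from Pmvk (1194 nt) at the lower left to Abca1 (10262 nt) at the upper right.

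The age comparison was therefore repeated with offsets that take out, library by library, any smooth trend of the counts with transcript length and GC content. Such offsets also remove a real difference that follows length. Under nicotine 14 members then passed, 4 higher, against 17.5% of all genes, and 10 lower, against 31% of all genes. Under saline 15 passed, 5 higher, against 13.7% of all genes, and 10 lower, against 25.8% of all genes. Of the members called, 12 under nicotine and 14 under saline had been called in the same direction without offsets, and 0 in the opposite one. Over all 16927 genes, 6495 under nicotine and 5487 under saline were called in the same direction in both fits. In opposite directions there were 307 under nicotine and 51 under saline.

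The enzymes that had fallen in both infusions stayed lower, but of those that had risen only Lss passed in both. Lss was higher at 0.50 (SE 0.085, adjusted p = 5.54e-04) under nicotine and 0.43 (SE 0.084, adjusted p = 0.00217) under saline, and Hmgcs1 passed under saline, at 0.36 (SE 0.092, adjusted p = 0.00920), and not under nicotine, at 0.23 (SE 0.092, adjusted p = 0.0591). Pmvk (-0.51 under nicotine and -0.41 under saline), Ebp (-0.54 and -0.62), Msmo1 (-0.49 and -0.43), Fdps (-0.44 and -0.33), Tm7sf2 (-0.41 and -0.35) and Idi1 (-0.27 and -0.36) were lower in both infusions. Fdft1 was lower under nicotine, at -0.58 (SE 0.12, adjusted p = 0.00215), and Cyp51 under saline, at -0.36 (SE 0.092, adjusted p = 0.00865). Hsd17b7 no longer passed, at 0.12 and 0.11, nor did Mvk under nicotine, at -0.031, and Mvd passed as higher under nicotine, at 0.23 (SE 0.081, adjusted p = 0.0349).

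Srebf2 stayed higher, at 0.32 (SE 0.056, adjusted p = 5.79e-04) under nicotine and 0.25 (SE 0.056, adjusted p = 0.00389) under saline, and Insig2 lower, at -0.28 and -0.18. Abcg1 was at 0.059 (SE 0.091, adjusted p = 0.615) under nicotine and 0.014 (SE 0.091, adjusted p = 0.920) under saline, and Abca1 at 0.081 (SE 0.089, adjusted p = 0.477) and 0.27 (SE 0.088, adjusted p = 0.0318), so that the called rise of Abcg1 was lost in both infusions and that of Abca1 under nicotine. Soat1 stayed higher, at 0.27 (SE 0.081, adjusted p = 0.0151) and 0.31 (SE 0.080, adjusted p = 0.0103), and Cyp46a1 lower, at -0.21 (SE 0.055, adjusted p = 0.00842) and -0.20 (SE 0.055, adjusted p = 0.0144). Nr1h2 stayed lower, at -0.24 and -0.24, and Stard4 lay at 0.0079 and 0.013. In all, 3 members were higher in both infusions with and without offsets (Lss, Srebf2 and Soat1), 8 were lower (Fdps, Pmvk, Msmo1, Ebp, Tm7sf2, Insig2, Nr1h2 and Cyp46a1) and 8 were called in none of these 4 comparisons (Sqle, Dhcr7, Nsdhl, Ggps1, Acat2, Srebf1, Scap and Insig1). The share of all genes that met each of these rules was not counted, so the tallies are read as no result about the members.

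**Figure D5:**
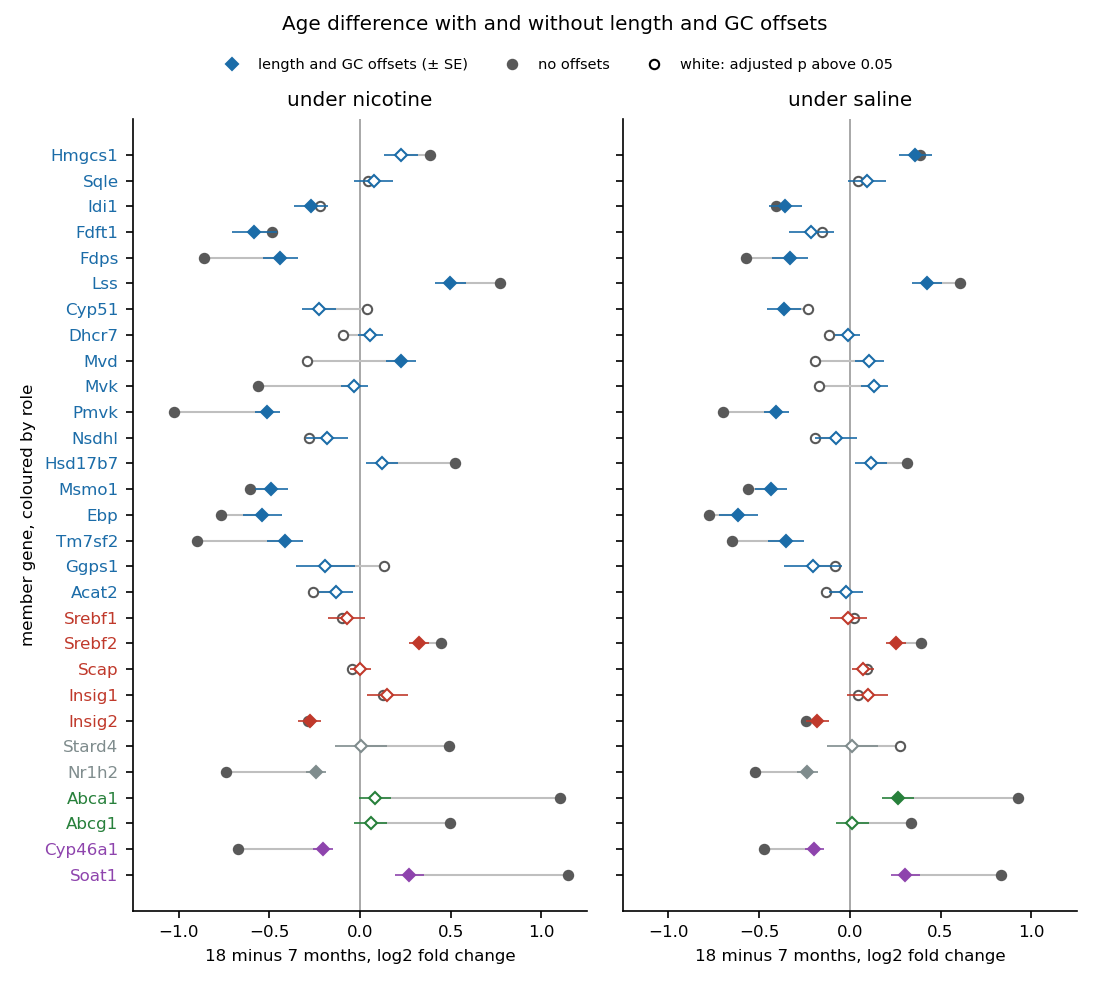
Age difference (18 minus 7 months, log2 fold change) of the 29 members without offsets (grey circles) and with length and GC offsets (diamonds ± SE, coloured by role), under nicotine (left) and saline (right), with white symbols for an adjusted p above 0.05. With offsets Abca1 under nicotine and Abcg1 in both infusions turn white, at 0.081, 0.059 and 0.014, and Lss, Srebf2, Soat1, Pmvk, Ebp and Msmo1 stay filled in both, most of them nearer to 0.

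Summed astrocyte markers ranged from 4225 to 4837 CPM at 18 months and from 3453 to 4550 CPM at 7 months, and oligodendrocyte markers from 3196 to 5693 CPM at 18 months and from 4190.5 to 6961 CPM at 7 months. Neuron markers (8 genes) ranged from 8704 to 10576 CPM at 18 months and from 7497 to 9492 CPM at 7 months. All were above 0 in every library. Of the 8 astrocyte markers 3 were called higher and 4 lower with age under nicotine, and 3 higher and 3 lower under saline. Of the 12 oligodendrocyte markers 2 were called lower under nicotine and 6 under saline, where 12 of 12 lay below 0. Of the 8 neuron markers 1 was called higher and 2 lower in each infusion. Their part in the age differences of the members was not tested. Of the 38 further genes, 21 passed under nicotine, 13 higher and 8 lower, or 55.3%, against 59.3% of all genes. Under saline 13 passed, 8 higher and 5 lower, or 34.2%, against 46.1% of all genes. Without offsets Sc5d rose by 0.88 (SE 0.12) under nicotine and 0.52 (SE 0.12) under saline. The fatty acid synthase gene Fasn rose by 0.60 (SE 0.11) under nicotine and 0.49 (SE 0.11) under saline, and the sterol transfer gene Stard3 fell, at -0.75 (SE 0.11) under nicotine and -0.73 (SE 0.11) under saline. With offsets 6 of the 38 were higher and 10 lower under nicotine, or 42.1%, against 48.5% of all genes, and 6 higher and 6 lower under saline, or 31.6%, against 39.5% of all genes. Of the 11 fatty acid genes, 1 under nicotine and 0 under saline were called in the same direction with and without offsets, so the call of Fasn under saline was lost with them.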

How the data were processed

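Gene counts of 12 hippocampal libraries were deposited by the authors as whole-number counts, not normalized, in a table for each age. The submitters' processing notes name TopHat and the build GRCm38; the counting tool, annotation and strand setting are not given in the sources used here. Per the labels' protocols a small RNA kit was used, whereas the tables cover mRNA genes. The tables hold 44788 genes at 7 months and 44786 at 18 months, joined over the 44760 they share.

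Counts were tested with edgeR 4.0.16 (TMM scaling, filterByExpr, quasi-likelihood F-test, Benjamini-Hochberg threshold 0.05 over all genes tested): nicotine against saline within the 6 libraries of each age, and the average, the interaction and both age contrasts in a fit of all 12. SE is the log2 fold change over the root of F. All 29 members passed the low-count filter. The members, lists and named genes were chosen with earlier results of these data known; in each comparison, named members are the 4 with the smallest p (10 for age) plus Hmgcs1, Sqle, Srebf1, Srebf2, Insig1, Abca1 and Cyp46a1, and other members are described after their values were seen. Alternatives were DESeq2 1.42.0, RLE factors, no filter, a replicate block, leaving out libraries, and offsets from a spline (4 df) on transcript length and GC content of GENCODE M21. Code was tested on simulated data. The result of 1 gene of the further pathway lists is not reported here.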

Additional observations from a re-analysis of the deposited data

How the results depend on the processing

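In every setting run, edgeR and DESeq2 called 0 members under nicotine. Leaving out each library in turn left 14 to 20 of 29 members called with age under saline and 17 to 21 under nicotine. Over all genes the same settings called 6251 to 11793 with age under saline and 10137 to 12688 under nicotine. The member counts are read as no result about the cholesterol genes. Gene counts under nicotine at 7 months (2), at 18 months (8), on average (7) and for the difference (1) did move. Without the low-count filter they were 6, 35 and 15 for the first 3; with DESeq2 81, 57, 80 and 37. One fit of all 12 libraries gave 9 at 7 months and 0 at 18 months, and offsets gave 12 on average. Both first 7-month libraries carry a column name prefix that differs from that of the other 7-month libraries. What the prefix marks is not given in the sources used here. Leaving out both first 7-month libraries gave 0 at 7 months, 2 for the difference, 5852 for age under saline and a synthesis median of -0.085 there. Leaving out 7-month saline library 2 with nicotine library 1 gave 1, 43 (average) and 6 (difference). Leaving out each library gave 0 to 2, 5 to 21, 2 to 21 and 0 to 3, and a synthesis median of the difference of -0.12 to 0.038. Same-numbered libraries correlated at -0.098 to 0.083 and were not treated as pairs; the replicate block gave 1 gene at 7 months, 3 on average and 0 for the difference, and Hmgcs1 at -0.0028 for the difference.

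Signs of named genes turned for values near 0 and for Abca1, and the synthesis median at 7 months ranged from -0.099 to 0.011 with single libraries left out. The difference of Hmgcs1 was -0.0060 without filter, -0.13 with offsets and -0.054 without that pair; of Sqle -0.0048, -0.021 and -0.0069. Srebf1 with age under saline was -0.013, -0.0098 and -0.0063, and -0.058 with offsets without saline library 2, a setting chosen after seeing the data; at 7 months it was -0.016 with offsets. Abca1 at 7 months was 0.085 with offsets and 0.14 without the pair, its difference -0.18 and -0.23, and its average 0.029 without the pair. Leaving out single libraries gave these ranges: at 7 months Srebf1 -0.093 to 0.12 and Abca1 -0.45 to 0.10; at 18 months Srebf2 -0.077 to 0.021 and Cyp46a1 -0.0047 to 0.091; on average Srebf1 -0.087 to 0.031 and Abca1 -0.25 to 0.011; for the difference Hmgcs1 -0.088 to 0.068, Sqle -0.092 to 0.067, Insig1 -0.035 to 0.25 and Abca1 -0.20 to 0.34; with age under saline Sqle -0.029 to 0.14, Srebf1 -0.023 to 0.14 and Insig1 -0.031 to 0.11; under nicotine Sqle -0.011 to 0.11 and Srebf1 -0.18 to 0.017. Insig1 with age under nicotine passed, at 0.30, in both settings that leave out 2 libraries and without 7-month nicotine library 1 (0.29). The cause was not tested. The SE beside each value is the precision that 3 libraries a group allow.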
